A study of Homo sapiens with 4 samples.

Results

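The amino acid transporters described here are 60 genes of the solute carrier (SLC) families SLC1, SLC6, SLC7, SLC15, SLC36, SLC38 and SLC43, out of 60664 genes in the deposited table. They were chosen by a rule on gene names, with earlier results of these data known. SLC7A11 and SLC6A8, whose names match the rule, were left out of the set. Total RNA of Hs578T, a triple-negative human breast cancer cell line with mesenchymal features, was sequenced in 4 libraries. Of these 2 were labelled as the empty group, whose deposited comparison is named FLAG against TFCP2L1, and 2 as overexpressing TFCP2L1, a grainyhead-like (CP2) transcription factor. The labels name no vector, promoter, clone, pool or time, and do not state that replicates are separate cultures. The p-values therefore cover the spread among these libraries alone, which may be technical, and any unlabelled batch that follows the groups cannot be told apart from them.

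Amino acid transporters move amino acids across the plasma membrane and the lysosomal membrane. Some take up amino acids together with sodium or protons against a gradient (the glutamate carriers of SLC1, system A and system N of SLC38, the SLC6 carriers and SLC36 carriers such as SLC36A1). Others exchange an amino acid inside the cell for another outside (SLC1A4, SLC1A5 and the SLC7 light chains, which work as heterodimers with a glycoprotein heavy chain), so that a concentrative carrier and an exchanger together set which amino acids a cell holds. In tumour cells the glutamine exchanger SLC1A5 and the leucine exchanger SLC7A5 are known for high expression and for supplying mTORC1, the kinase complex that senses amino acids at the lysosome.

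The libraries held 18960674 to 26355502 estimated counts. CPM are counts scaled to library size and compare a gene between libraries. The deposited TPM also scale by transcript length and compare levels between genes. The overexpressed gene, TFCP2L1, was read 12 and 19 times in empty and 4623 and 5069 times in overexpressing libraries, so all 4 libraries went with their labels. VIM, FN1, CD44 and ZEB1, markers of the mesenchymal line, summed to between 10529 and 11304 CPM in each library, while CDH1, EPCAM and ESR1 were each below 1 CPM and PGR was at 0. ERBB2, also listed as low for this line, was above these at 47.2 and 46.6 CPM in empty libraries. It rose to 85.7 and 87.8 CPM with TFCP2L1 (log2 fold change 0.89, edgeR adjusted p = 1.4e-07). The leukocyte marker PTPRC was at most 0.114 CPM. Of the other markers of leukocytes and blood vessels, CD68 stood at 36.1 and 38.1 CPM in empty libraries against 86.3 and 88.3 CPM with TFCP2L1, and PECAM1 at 34.1 and 25.3 against 9.94 and 9.92 CPM. VWF, the other endothelial marker that was tested, fell from 1.03 and 1.59 to 0.126 and 0.153 CPM (log2 fold change -3.16, edgeR adjusted p = 0.000245), and CDH5 was at most 0.129 CPM. The part of such markers in the results below was not tested.

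A transporter was tested when it passed a filter on low counts, and 30 of the 60 did. With edgeR's quasi-likelihood test and Benjamini-Hochberg adjustment over all 16544 tested genes, 19 of these 30 differed between the groups at an adjusted p under 0.05. Of all tested genes 47.5% did so. Higher with TFCP2L1 were 8 transporters (23.5% of all tested genes) and lower were 11 (23.9%). SLC38A3 passed the filter through the overexpressing group only, and SLC36A2 and SLC1A2 through the empty group only. Their p-values and the counts over tested members, here and below, are therefore descriptions. The median log2 fold change, always given as overexpression over empty, was -0.12 over the 30 transporters and -0.002 over all tested genes. Of the 19, 7 also changed at least 1 log2 unit, 4 up and 3 down, and 13.9% of all tested genes passed both thresholds. In 26 of the 30 the CPM of the groups did not overlap, as in 73.7% of all tested genes. Of these, 9 were higher with TFCP2L1 (36.7% of all tested genes) and 17 lower (37.1%). The authors' deposited table marks 13 of the 30 as significant, by a rule other than an adjusted p under 0.05 alone. SLC6A6, for example, is unmarked there at a log2 fold change of -0.4 (deposited DESeq2 adjusted p = 6.08e-07). Of the 19 called here, 0 have the opposite sign there. The share of all genes marked in the authors' table was not counted, so the 13 are a description only.

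**Figure D1:**
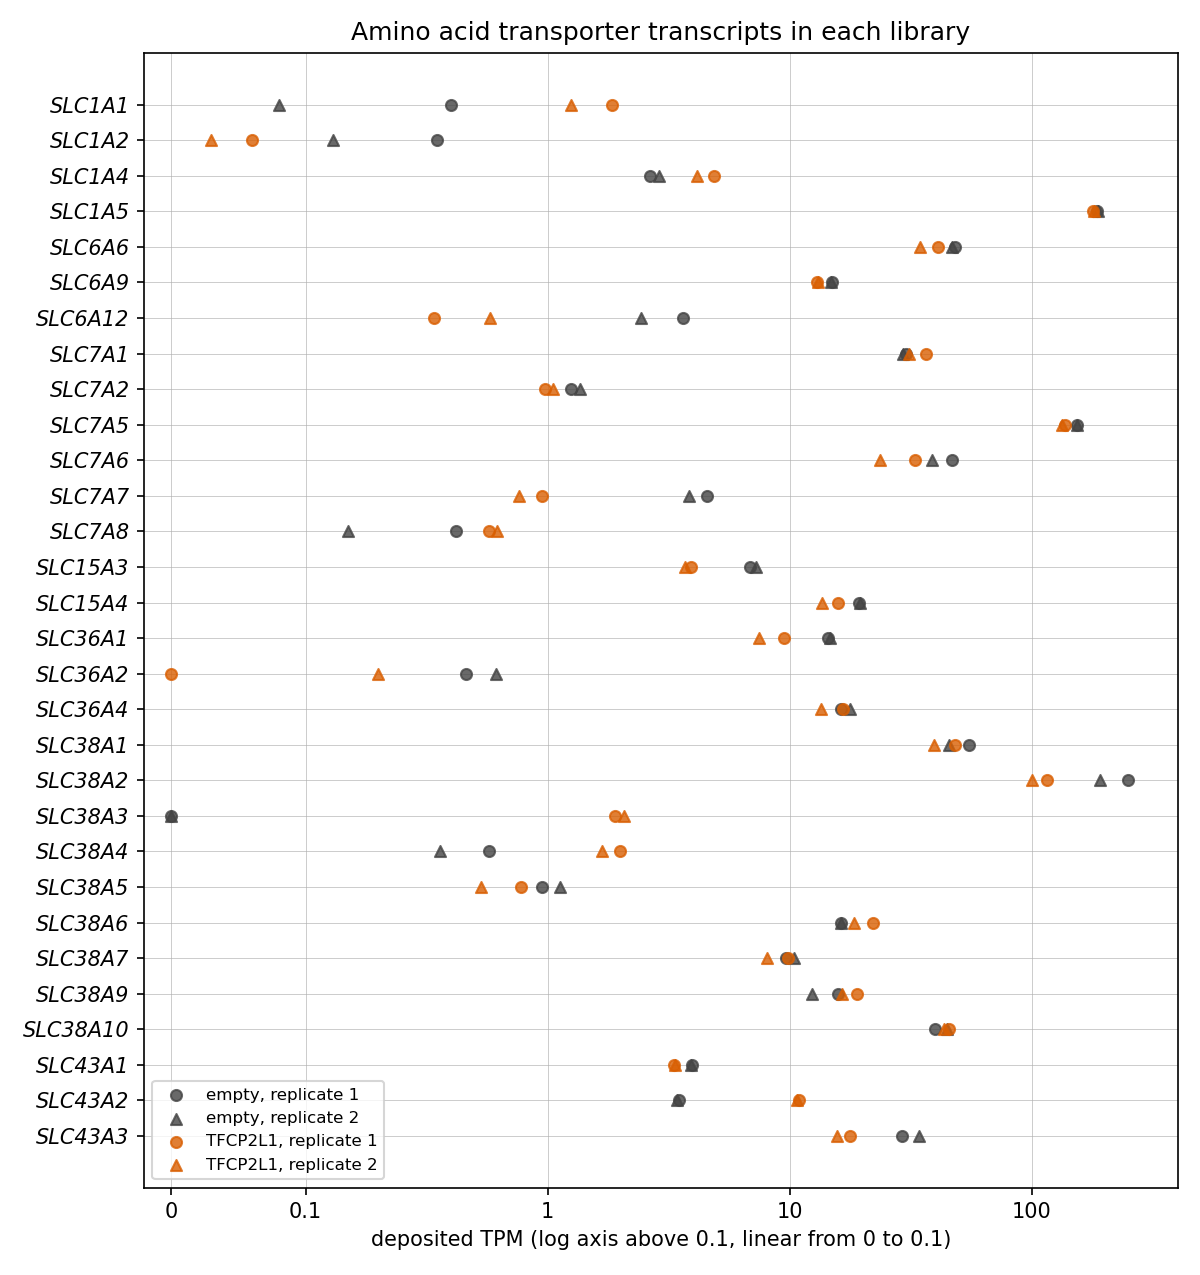
Deposited TPM (horizontal axis, logarithmic above 0.1 and linear below) of the 30 tested transporters in each of the 4 libraries, grey for empty and orange for TFCP2L1, with circles for replicate 1 and triangles for replicate 2. SLC38A2, SLC1A5 and SLC7A5 lie at 100 TPM or more in every library, and SLC38A3 lies at 0 in both empty libraries and near 2 in both overexpressing ones.

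Per length, 3 transporters made up most of the transporter transcripts. SLC1A5, SLC7A5 and SLC38A2 together held 60.3% and 58.6% of the summed TPM of the 60 genes in empty libraries and 54.5% and 57.2% in overexpressing ones. The order among them differed between the groups. In both empty libraries SLC38A2 came first at 249.92 and 190.7 TPM, ahead of SLC1A5 at 186.84 and 188.11 TPM and SLC7A5 at 153.35 and 153.3 TPM. In the second empty library SLC38A2 and SLC1A5 lay closer together than the SLC38A2 values of the replicates did. In both overexpressing libraries SLC1A5 came first at 179.34 and 180.15 TPM, SLC7A5 next at 136.81 and 133.08 TPM and then SLC38A2 at 116.09 and 100.34 TPM. Ranks 4 to 8, held by SLC38A1, SLC6A6, SLC7A6, SLC38A10 and SLC7A1 or SLC43A3, lay between 23.66 and 54.91 TPM and changed places from library to library. The summed TPM of the 60 genes was 978.9 and 907.6 without and 793.1 and 723.3 with TFCP2L1. Without SLC38A2 the sums were 729 and 716.9 against 677 and 623 TPM. In a bulk sample, fewer cells expressing a transporter and less RNA per cell cannot be told apart.

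**Figure D2:**
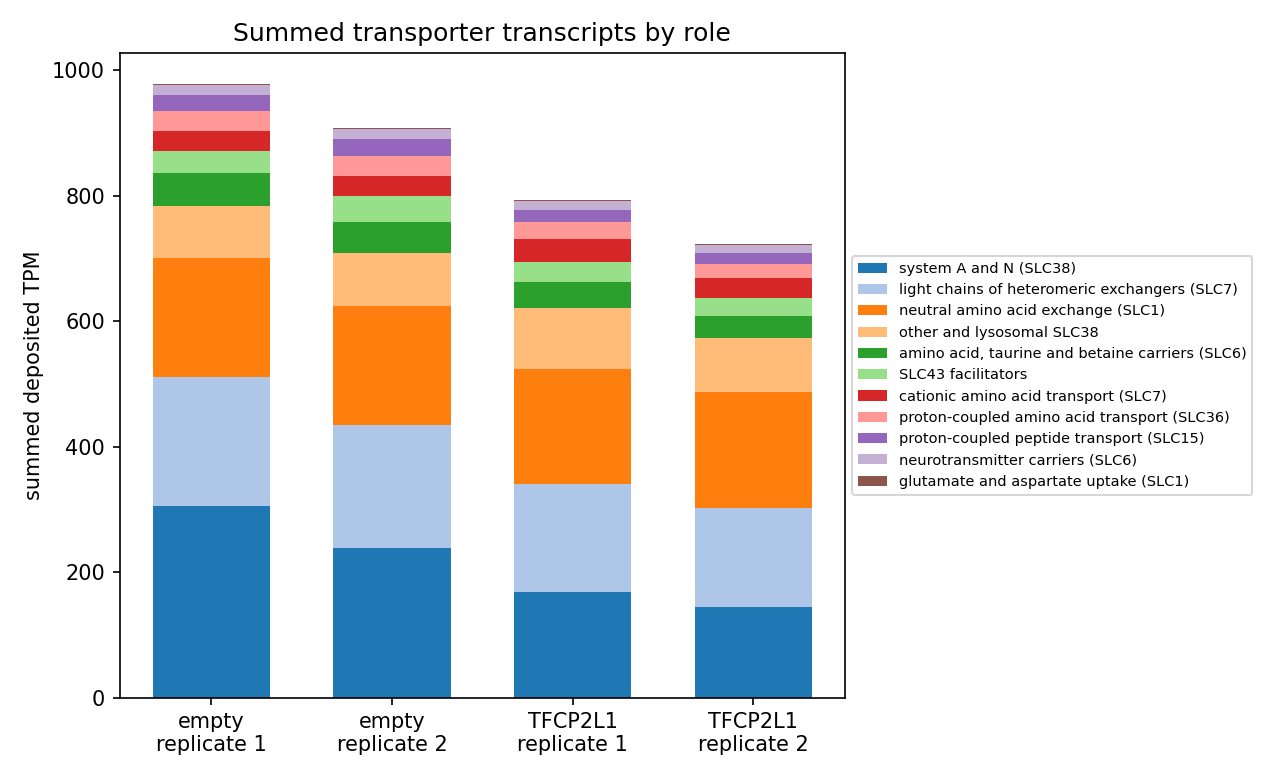
Summed deposited TPM (vertical axis) of the 60 transporters in each library, stacked by role. The bars reach 978.9 and 907.6 TPM in the empty libraries and 793.1 and 723.3 TPM in the overexpressing ones, and the system A and N segment at the bottom goes from 306.3 and 237.8 to 168.9 and 144.1 TPM.

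The sodium-coupled neutral carriers of SLC38 held both the largest fall in transcript level and the largest proportional rise. SLC38A2 (ENSG00000134294), which carries glutamine, alanine and other small neutral amino acids by system A and is known to be induced when amino acids run short, measured 734.4 and 585.4 CPM in empty cells against 351.8 and 325.4 CPM with TFCP2L1. Both overexpressing libraries lay below both empty ones, although the empty libraries differed by more than the overexpressing ones. The fall was 1.95-fold (log2 fold change -0.96, SE 0.11, edgeR adjusted p = 0.000359). Without overexpression replicate 1 the log2 fold change was -1.01 (adjusted p = 0.211) and without overexpression replicate 2 it was -0.9 (adjusted p = 0.235), and over the 13 other fits the adjusted p ranged from 2.2e-45 to 0.235. SLC38A1, the other widely expressed system A carrier, had overlapping groups at 306.7 and 274.6 against 285.4 and 247.4 CPM. Its log2 fold change of -0.13 (95% interval -0.29 to 0.03) missed the threshold at an adjusted p of 0.184, but it was -0.22 with an adjusted p of 0.00396 without overexpression replicate 1 (0.00396 to 0.797 over all fits).

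SLC38A3 (ENSG00000188338), a system N carrier that moves glutamine in both directions and is known from liver, kidney and astrocytes, had 0 counts in both empty libraries, while 95 and 109 counts were found with TFCP2L1. With the limit of 3 counts over the empty group, its level was at least 57.4-fold higher with TFCP2L1. SLC38A3 passed the filter through the overexpressing group only, so its edgeR adjusted p of 9.84e-08 is a description. Its level with TFCP2L1 remained low, 1.9 and 2.07 TPM. SLC38A4, a system A carrier of liver and placenta, rose from 1.55 and 0.951 CPM to 5.28 and 4.69 CPM, a log2 fold change of 1.97 (SE 0.26, edgeR adjusted p = 2.62e-05). SLC38A5, the second system N carrier, had 7 and 18 counts in empty and 19 and 19 in overexpressing libraries, with overlapping groups and a log2 fold change of 0.33 (95% interval -0.79 to 1.44). Without empty replicate 1 its sign turned (log2 fold change -0.32), as it did on the TPM scale. SLC38A8 and SLC38A11 had no count in any library.

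SLC38A1, SLC38A2 and SLC38A4 lie side by side on the minus strand of chromosome 12, and their changes differed. In GENCODE release 29 (GRCh38) SLC38A1 spans 46183063 to 46270017, SLC38A2 spans 46358189 to 46372867 and SLC38A4 spans 46764761 to 46832408. The gaps between them are 88.2 kb and 391.9 kb. The promoters of SLC38A2, which fell, and SLC38A4, which rose, are shown because they belong to neighbouring paralogs that were called in opposite directions. They are the 250 bases before the RefSeq start, on the minus strand of GRCh38.p14, chr12:46372774-46373023 and chr12:46825998-46826247.
SLC38A2: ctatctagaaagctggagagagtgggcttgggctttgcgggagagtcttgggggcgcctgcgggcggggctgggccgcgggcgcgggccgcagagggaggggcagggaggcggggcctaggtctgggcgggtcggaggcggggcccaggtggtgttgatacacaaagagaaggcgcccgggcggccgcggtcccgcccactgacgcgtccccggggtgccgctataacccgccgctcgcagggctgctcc
SLC38A4: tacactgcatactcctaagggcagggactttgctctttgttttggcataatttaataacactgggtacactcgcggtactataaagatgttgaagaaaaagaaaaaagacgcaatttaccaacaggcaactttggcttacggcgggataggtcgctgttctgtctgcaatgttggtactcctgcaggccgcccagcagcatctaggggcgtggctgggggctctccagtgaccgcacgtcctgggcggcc
Of these bases 73.6% are G or C in SLC38A2 and 51.6% in SLC38A4. Neither window holds the amino acid response element TGATGNAA, to which ATF4 is known to bind, or a pair of half-sites of the CP2 family, CCAG and CCAG with any 6 bases between them. Both motifs were searched on both strands and do not overlap each other. The element known to control SLC38A2 lies in its first intron, outside this window.

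The remaining SLC38 members sit largely in inner membranes. SLC38A9, the lysosomal arginine sensor that signals to mTORC1, rose from 18.4 and 17.3 to 24.6 and 23.5 CPM (log2 fold change 0.43, SE 0.10, edgeR adjusted p = 0.0024). SLC38A6, whose transport role is less settled, rose from 13 and 12.4 to 17.4 and 16.9 CPM (log2 fold change 0.43, SE 0.11, edgeR adjusted p = 0.00466). Exons of SLC38A6 overlap TRMT5 on the other strand, which had a log2 fold change of 0.06. Tested on the TPM scale with limma, both calls were lost (with a pseudocount of 1, adjusted p = 0.146 for SLC38A9 and 0.104 for SLC38A6), and DESeq2 gave an adjusted p of 0.0527 for SLC38A6. SLC38A7, a lysosomal exporter of glutamine and asparagine, measured 19.4 and 19.2 against 19.5 and 16.9 CPM, with overlapping groups (95% interval of the log2 fold change -0.32 to 0.14). SLC38A10 had 113.5 and 118 against 119.7 and 124.7 CPM (95% interval -0.06 to 0.21).

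Among the SLC1 exchangers, the abundant member stayed below the threshold while the low one rose. SLC1A5, which brings in glutamine in exchange for other neutral amino acids, measured 313.8 and 314.2 CPM in empty and 286.4 and 302.5 CPM in overexpressing cells. The groups did not overlap, but the log2 fold change of -0.09 (95% interval -0.21 to 0.03) had an adjusted p of 0.192, which was 0.0395 without overexpression replicate 2 (log2 fold change -0.13). SLC1A4, an exchanger of alanine, serine and cysteine, rose from 8.11 and 9.36 to 13.3 and 13.3 CPM, a log2 fold change of 0.61 (SE 0.13, edgeR adjusted p = 0.00149). The promoter at 1 of 3 RefSeq starts of SLC1A5, the 250 bases at chr19:46784815-46785064 on the minus strand of GRCh38.p14, is shown because SLC1A5 was the tested transporter whose windows hold the amino acid response element, in capitals.
SLC1A5: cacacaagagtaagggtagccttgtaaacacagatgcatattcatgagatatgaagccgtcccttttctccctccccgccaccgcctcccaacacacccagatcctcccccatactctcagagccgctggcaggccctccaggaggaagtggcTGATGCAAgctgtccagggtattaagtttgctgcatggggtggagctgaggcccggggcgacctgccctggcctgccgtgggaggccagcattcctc
The element begins 97 bases before that start. In all, 46 of the 60 transporters matched the RefSeq promoter table with 66 windows, and SLC1A3 and SLC15A5, which were too low to test, also hold the element. It occurs in 3.14% of the 35116 windows of the table. A match is a description of the letters and not a site of binding.

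Glutamate carriers were scarce. SLC1A1, which takes up glutamate, aspartate and cysteine, rose from 24 and 4 counts to 95 and 88 counts, which are 1.03 and 0.211 against 3.98 and 3.36 CPM. The ratio of depth-scaled counts was 5.51 (exact 95% interval 3.69 to 8.53, counting error only; edgeR adjusted p = 0.000757). Its size rests on the empty libraries, with a log2 fold change of 2.48 in all, 4.09 without empty replicate 1 and 1.83 without empty replicate 2. SLC1A2, the main glutamate carrier of astrocytes, had 10 and 9 counts against 4 and 3, and its log2 fold change of -1.65 (95% interval -3.06 to -0.23) had an adjusted p of 0.053. It passed the threshold with limma-voom (adjusted p = 0.0442) and with upper quartile scaling (adjusted p = 0.0497), within a range of 0.0442 to 0.387 over the fits run. SLC1A3, SLC1A6 and SLC1A7, known from glia, cerebellum and retina, fell below the filter. SLC1A3 had 13 and 4 counts in empty against 0 and 1, SLC1A6 had 15 and 4 against 1 and 0, and SLC1A7 had 1 and 9 against 0 and 0. With no filter on low counts these 3 were called lower (edgeR adjusted p = 0.00825, 0.00365 and 0.0268). With DESeq2 none of the 20 untested members with a count was called. Its default filter can leave genes of low mean without an adjusted p, so that count is not a test of these calls.

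Of the 4 tested SLC7 light chains, all partners of the heavy chain SLC3A2, 3 were called lower. Of all tested genes 23.9% were called lower, and a count out of 4 is a description only. SLC7A5, the leucine and large neutral amino acid exchanger LAT1, fell from 472.9 and 466 to 406.3 and 416.1 CPM (log2 fold change -0.19, SE 0.05, edgeR adjusted p = 0.00876). That call was lost without empty replicate 1 (adjusted p = 0.146), without empty replicate 2 (adjusted p = 0.094) and on the TPM scale (adjusted p = 0.0538 with a pseudocount of 1), within 0.000988 to 0.146 over the fits run. The pseudogene copies SLC7A5P1 and SLC7A5P2 had at most 2.65 estimated counts in a library. SLC7A6, the y+LAT2 exchanger of arginine and glutamine, fell 1.75-fold from 174.3 and 155.4 to 102.9 and 85.5 CPM (log2 fold change -0.81, SE 0.09, edgeR adjusted p = 1.73e-05). Its exons overlap SLC7A6OS on the other strand, which had a log2 fold change of -0.13 and was not called. No source used here states if counting used strand, so reads of such overlapping pairs cannot be told apart.

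SLC7A7, the y+LAT1 exchanger that is mutated in lysinuric protein intolerance, fell from 110 and 93 counts to 24 and 30 counts. These are 4.72 and 4.92 CPM against 1.01 and 1.14 CPM, with a log2 fold change of -2.15 (SE 0.25, edgeR adjusted p = 6.43e-06). SLC7A7 is also known from macrophages. Of the 4 leukocyte markers, CD68 was at 36.1 and 38.1 against 86.3 and 88.3 CPM, and PTPRC, CD3E and CD79A were each at most 0.168 CPM. Their part in the fall of SLC7A7 was not tested. One of its 3 promoter windows, the 250 bases at chr14:22819792-22820041 on the minus strand of GRCh38.p14, is shown because SLC7A7 was the transporter in the promoter table that holds the CP2 half-site pair, in capitals.
SLC7A7: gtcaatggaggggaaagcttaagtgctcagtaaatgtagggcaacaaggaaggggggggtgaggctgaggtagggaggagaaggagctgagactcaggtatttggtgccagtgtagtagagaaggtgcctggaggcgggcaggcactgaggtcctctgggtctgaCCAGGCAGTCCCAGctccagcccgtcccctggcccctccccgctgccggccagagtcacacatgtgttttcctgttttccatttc
The pair begins 85 bases before that start, and 3.27% of all 35116 windows hold it. SLC7A8, the LAT2 exchanger, stood at 0.73 and 0.37 against 0.545 and 1.11 CPM with overlapping groups (95% interval of the log2 fold change -0.51 to 1.64). Its sign turned to a log2 fold change of -0.033 without overexpression replicate 2. SLC7A9 and SLC7A10 had at most 9 counts in a library, and SLC7A13 had none.

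The heavy chains were measured beside these light chains. SLC3A2, which carries SLC7A5, SLC7A6, SLC7A7 and SLC7A8 to the cell surface, was at 289.1 and 281.1 CPM in empty and 263.8 and 280.5 CPM in overexpressing cells. Its log2 fold change of -0.07 (95% interval -0.19 to 0.06) missed the threshold (edgeR adjusted p = 0.359). SLC3A1, the partner of SLC7A9 and SLC7A13, was at most 0.336 CPM. SLC7A11, which also pairs with SLC3A2 and takes up cystine, was left out of the set and had a log2 fold change of 1.28, and the creatine carrier SLC6A8, also left out, had -0.17 (edgeR adjusted p = 0.0665).

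Of the cationic amino acid transporters, SLC7A1, which brings in arginine and lysine in most cells, was 1.13-fold higher. It measured 159.2 and 156.3 CPM in empty and 186.9 and 169.9 CPM in overexpressing cells (log2 fold change 0.18, SE 0.06, edgeR adjusted p = 0.0317). The call was lost with upper quartile scaling (edgeR adjusted p = 0.0652) and on the TPM scale (limma adjusted p = 0.251 with a pseudocount of 1). It was also lost when empty replicate 1, empty replicate 2 or overexpression replicate 1 was left out (log2 fold changes 0.19, 0.17 and 0.12). Without overexpression replicate 2 the log2 fold change was 0.25. SLC7A2, an arginine carrier of liver and activated macrophages, stood at 6.7 and 7.56 against 5.24 and 6.03 CPM (95% interval of the log2 fold change -0.7 to 0.03). SLC7A3, SLC7A4 and SLC7A14 had at most 3 counts in a library.

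Of the SLC36 carriers, SLC36A1 and SLC36A2 were called lower and SLC36A4 was not called. SLC36A1, which exports small amino acids from lysosomes, fell 1.82-fold from 58.3 and 58 to 34.4 and 29.6 CPM (log2 fold change -0.86, SE 0.09, edgeR adjusted p = 1.67e-06). Its neighbour on chromosome 5, SLC36A2, a glycine and proline carrier of kidney, lies 89.5 kb away. SLC36A2 fell from 23 and 25.64 estimated counts to 0 and 5, a ratio of 11.6-fold lower (exact 95% interval 4.65 to 37.4, counting error only). It passed the filter through the empty group only, so its edgeR adjusted p of 0.00093 is a description. Its log2 fold change of -3.49 became -2.58 without overexpression replicate 1 and -7.7 without overexpression replicate 2. SLC36A3, the other gene of that cluster, had no count. SLC36A4, a carrier of proline and tryptophan, measured 33.7 and 30.6 against 29 and 26.3 CPM without overlap (log2 fold change -0.22, edgeR adjusted p = 0.0636). It passed without overexpression replicate 1 (adjusted p = 0.0233), with a minimum of 1 CPM in 2 libraries (0.0479) and with upper quartile scaling (0.0391), within 0.0233 to 0.415 over the fits run.

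The peptide and histidine transporters of the endolysosome, SLC15A3 and SLC15A4, both known from immune cells, were lower too. SLC15A3 fell from 7.08 and 7.24 to 3.52 and 3.85 CPM (log2 fold change -0.95, SE 0.18, edgeR adjusted p = 0.000513). Exons of SLC15A3 overlap TMEM132A on the other strand, a more abundant gene with a log2 fold change of 0.12. SLC15A4 fell from 32.6 and 32.5 to 25.1 and 24.7 CPM (log2 fold change -0.39, SE 0.09, edgeR adjusted p = 0.00187). The epithelial peptide carriers SLC15A1 and SLC15A2 had at most 7.14 estimated counts in a library and were not tested, and SLC15A5 had none.

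The SLC43 facilitators, which let amino acids cross without an ion gradient, were split. SLC43A2, the LAT4 carrier of branched-chain amino acids and phenylalanine, rose 2.45-fold from 8.93 and 8.56 to 21.3 and 21.5 CPM (log2 fold change 1.29, SE 0.11, edgeR adjusted p = 3.72e-07). SLC43A3, which is known to carry purine nucleobases rather than amino acids, fell 1.95-fold from 45.4 and 48.8 to 24.6 and 23.7 CPM (log2 fold change -0.96, SE 0.09, edgeR adjusted p = 4.35e-07). SLC43A1, the LAT3 carrier, lies 57 kb from SLC43A3 on chromosome 11 and measured 4.68 and 4.55 against 4.11 and 4.39 CPM (95% interval of the log2 fold change -0.53 to 0.29).

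Of the SLC6 family 3 members were high enough to test. SLC6A6, the taurine transporter, fell from 210.2 and 197.7 to 159.2 and 147.2 CPM (log2 fold change -0.41, SE 0.06, edgeR adjusted p = 8.56e-05). SLC6A12, a betaine and GABA carrier that is induced by hypertonicity, fell from 146 and 76 counts to 16 and 30 counts, with a log2 fold change of -2.49 (SE 0.31, edgeR adjusted p = 1.33e-05). Its neighbour SLC6A13, 6.05 kb away, had at most 3 counts in a library. SLC6A9, the glycine transporter GlyT1, measured 27.1 and 25.3 against 24.8 and 24.1 CPM (95% interval of the log2 fold change -0.3 to 0.1). Exons of SLC6A6 and SLC6A9 overlap GRIP2 and CCDC24 on the other strand, which were called higher with log2 fold changes of 1.31 and 1.06. The carriers of noradrenaline, dopamine and serotonin, SLC6A2, SLC6A3 and SLC6A4, had at most 3 counts in a library.

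**Figure D3:**
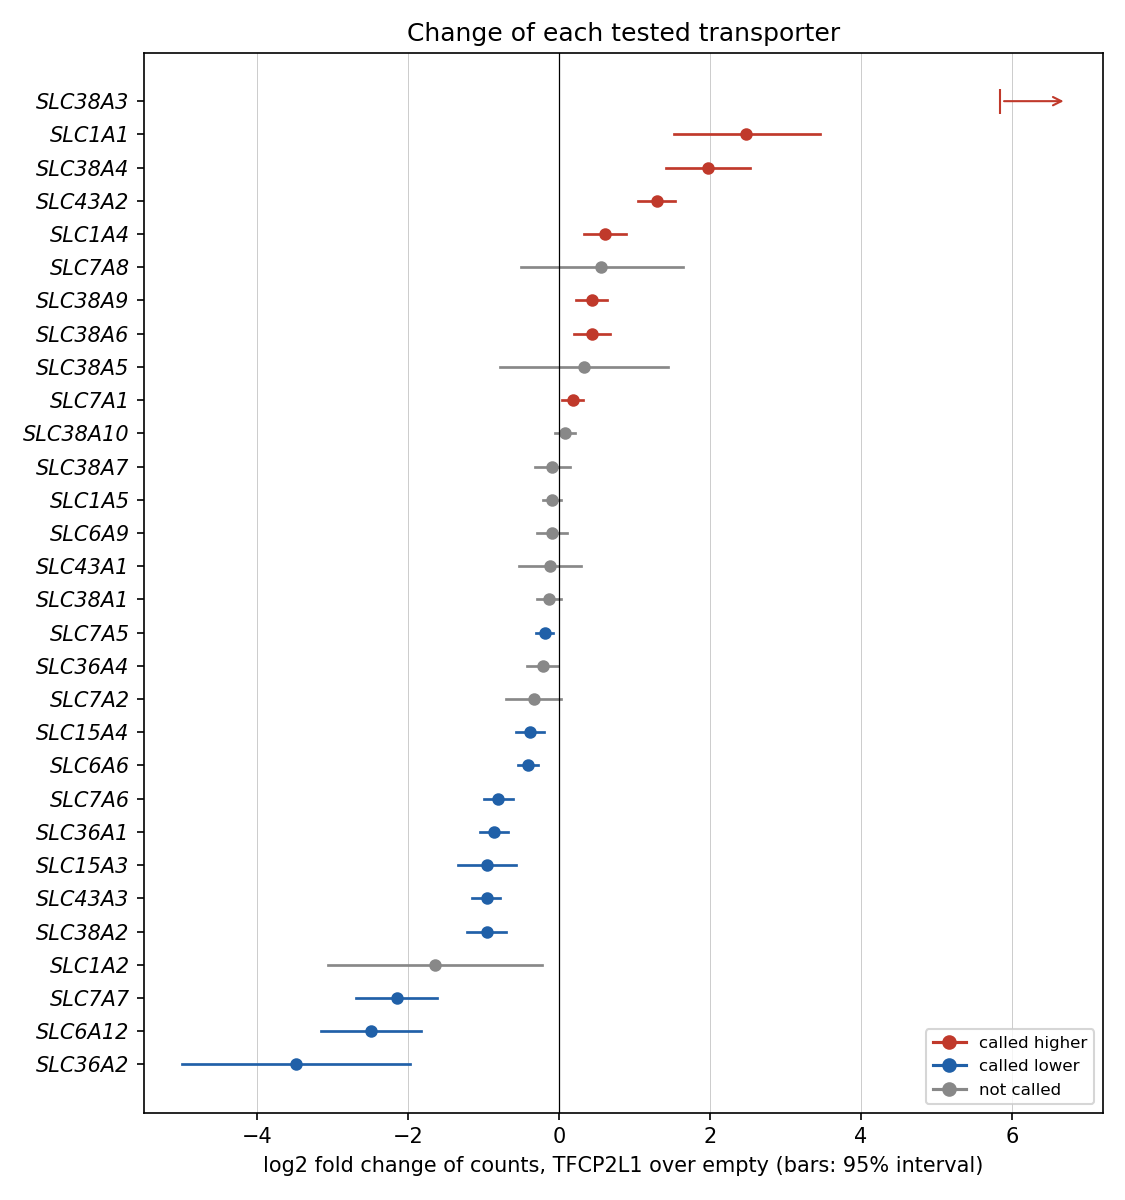
Log2 fold change of counts, TFCP2L1 over empty (horizontal axis), of the 30 tested transporters with 95% intervals from edgeR, red for called higher, blue for called lower and grey for not called. The tick with an arrow is the lower limit for SLC38A3, which had no count in empty cells, and the other values run from -3.49 for SLC36A2 to 2.48 for SLC1A1.

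Of the 30 transporters that were not tested, 10 had no count in any library and 20 had at most 26 counts over all 4. Among those 20, 12 had more raw reads in empty libraries, 6 more in overexpressing ones and 2 the same number. These reads were not scaled to depth, and both overexpressing libraries were deeper than both empty ones. SLC6A4 and SLC6A17, the 2 with equal reads, each had a ratio of depth-scaled counts of 0.843. No such split was made for the other untested genes, so this one is a description only. The untested transporters were left out of the main test, and the 3 SLC1 carriers above were the ones called when no filter was applied.

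Other genes that handle amino acids were counted from lists by their role. Over all tested genes 47.5% were called, 23.5% higher and 23.9% lower, and the median log2 fold change was -0.002. In the amino acid response, through which ATF4 induces transporters and enzymes when amino acids are short, 11 of 18 genes rose and 2 fell, with a median log2 fold change of 0.41. ATF4 rose from 316.5 and 300.4 to 391.3 and 416.4 CPM (log2 fold change 0.39, edgeR adjusted p = 7.41e-05), and the glutathione-degrading enzyme CHAC1 from 3.86 and 2.96 to 7.55 and 8.05 CPM. STC2, a secreted glycoprotein, rose with a log2 fold change of 1.43, and DDIT4, an inhibitor of mTORC1, with 0.68. TRIB3, a pseudokinase induced by ATF4, fell from 40 and 36.5 to 24.3 and 24.6 CPM. CEBPB, the other gene of the list that fell, had a log2 fold change of -1.28 (edgeR adjusted p = 0.0139). ASNS, also of this list, was not called (log2 fold change -0.14, edgeR adjusted p = 0.184). SLC38A2, SLC7A5 and SLC7A11 are examples of carriers known as targets of ATF4, not a full set. Their log2 fold changes were -0.96, -0.19 and 1.28.

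In amino acid sensing upstream of mTORC1, 9 of 34 tested genes rose and 6 fell, with a median of 0.03. Without empty replicate 1 the count of falls was 2. TFEB, the transcription factor of lysosomal genes, rose from 4.76 and 4.33 to 43.4 and 47.4 CPM (log2 fold change 3.31, SE 0.11, edgeR adjusted p = 2.28e-11). RHEB, MTOR and SESN2 rose with log2 fold changes of 0.66, 0.37 and 0.76. RRAGA, a GTPase that brings mTORC1 to the lysosome, fell with -0.56.

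Enzymes of amino acid synthesis went both ways, with 6 of 21 higher and 4 lower and a median of -0.1. GOT1, PSPH and OAT rose with log2 fold changes of 1.06, 0.73 and 0.39, and GOT2 fell with -0.36. ASS1, which makes the precursor of arginine, fell from 3.61 and 4.28 to 0.252 and 0.687 CPM (log2 fold change -3.03, or -3.93 without overexpression replicate 2). In amino acid breakdown 12 of 23 tested genes rose and 4 fell, with a median of 0.31. HPD, of tyrosine breakdown, went from 0.0859 and 0.211 to 9.27 and 9.58 CPM, with a log2 fold change of 6 (6.7 without empty replicate 2). DLD and GLUD1 rose with 0.68 and 0.54, while KYNU and ARG2, of tryptophan and arginine breakdown, fell with -1.34 and -1.31.

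Of 14 tested amino acid carriers in other families, 4 rose and 4 fell, with a median of 0.05. When either empty replicate was left out, 2 of these were higher, and when empty replicate 2 or overexpression replicate 1 was left out, 2 were lower. SLC25A29, a mitochondrial carrier of basic amino acids, rose from 7 and 5.39 to 12.2 and 12.2 CPM, while SFXN1, which brings serine into mitochondria, and CTNS, which exports cystine from lysosomes, fell with log2 fold changes of -0.43 and -0.49. SLC25A44 and SLC25A13 had 0.27 and 0.23, and lost the call without empty replicate 2 (adjusted p = 0.0632 and 0.0661) and on the TPM scale, SLC25A13 also without empty replicate 1 (adjusted p = 0.158). Among the partners of transporters 1 of 5 tested genes rose and 2 fell, with a median of -0.11. SGK1, a kinase that raises the surface level of several carriers, fell from 39.8 and 43.9 to 21.3 and 22.1 CPM, NEDD4, a ubiquitin ligase, fell with a log2 fold change of -0.36, and ARL6IP5, whose rat counterpart restrains SLC1A1, rose with 0.35. On the TPM scale NEDD4 lost its call (adjusted p = 0.163). Of 20 aminoacyl-tRNA synthetases, which load amino acids on tRNA, 7 rose and 4 fell, with a median of 0.08. Those that rose numbered 2 without empty replicate 1 and 4 without empty replicate 2. The named falls were FARSA at -0.4, CARS1 at -0.32 and TARS1 at -0.24, and the named rises VARS1 at 0.35 and WARS1 at 0.34; TARS1 lost its call without empty replicate 1 (adjusted p = 0.106) and, as VARS1 did (adjusted p = 0.189), on the TPM scale (adjusted p = 0.129).

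**Figure D4:**
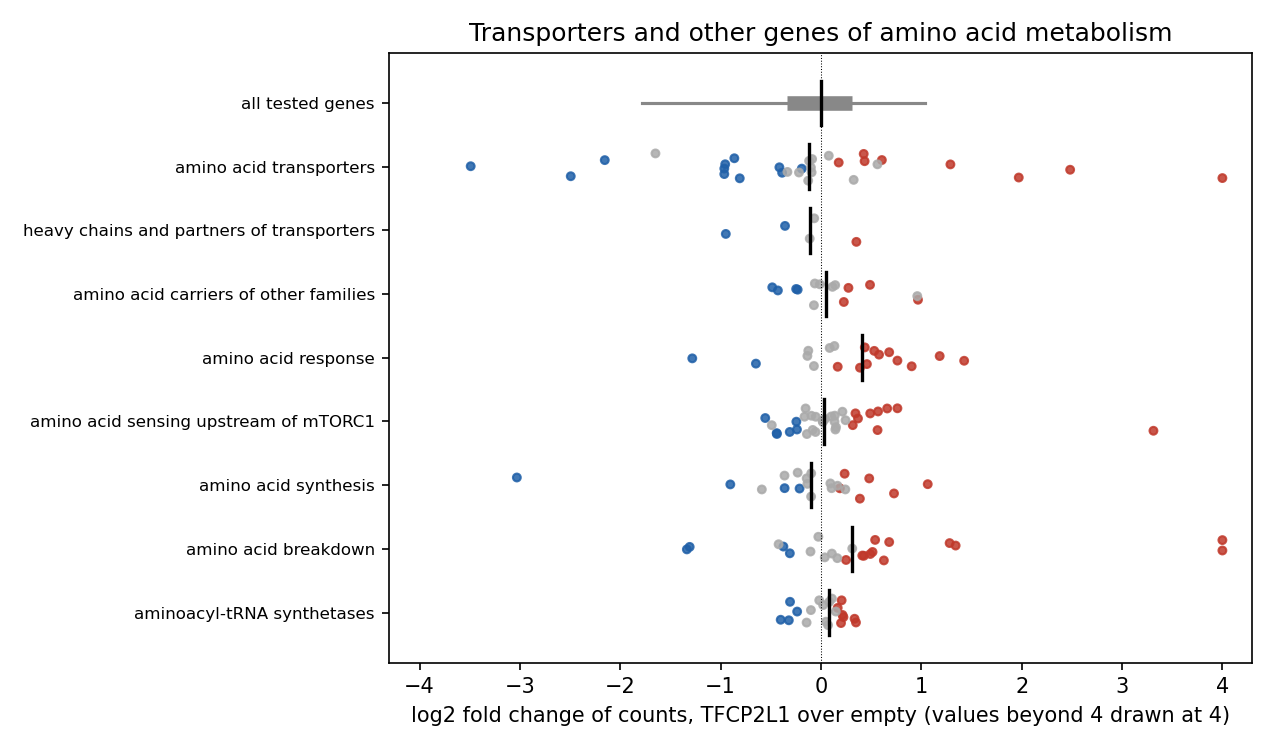
Log2 fold change of counts, TFCP2L1 over empty (horizontal axis), of the tested genes of each list, red for called higher, blue for called lower and grey for not called, with a black line at each median and values beyond 4 drawn at 4. The top bar spans the middle of all tested genes, from -0.34 to 0.31 at the quartiles and from -1.78 to 1.04 at the 5th and 95th percentiles, and the amino acid response has the highest median at 0.41.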

How the data were processed

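RNA-seq of 4 Hs578T libraries was analysed, grouped by the treatment in the labels. The authors deposited estimated counts per gene, not normalized, and TPM per library, per the file headers. The authors also deposited a ratio (fold change), a log2 fold change and a p-value per gene, made with DESeq2 according to the workbook's name. Bowtie 0.12.2 and the mouse build mm9 appear in the submitters' processing notes, while the gene IDs are human. The aligner, counter, strand setting and annotation behind these counts are therefore treated as unknown. Positions and overlaps come from GENCODE release 29.

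Estimated counts were rounded and fitted with edgeR 4.0.16 in R 4.3.3 (TMM, filterByExpr with a minimum count of 10, glmQLFit with robust = TRUE, glmQLFTest, adjusted p under 0.05). Each standard error is the absolute log2 fold change over the root of its F statistic. Intervals of ratios and the limit of 3 counts over a group cover counting error only. Alternatives used limma 3.58.1, DESeq2 1.42.0, other scalings, filters and thresholds, and leaving out each library. The script was tested on simulated data. No permutation test is given, since 2 libraries against 2 allow 3 splits. Named genes were every tested transporter and up to 5 called genes of each list, smallest p first. CEBPB and ASNS, of the amino acid response, were named in addition. The members and lists were chosen with earlier results of these data known. Some items are not reported here.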

Additional observations from a re-analysis of the deposited data

How the results depend on the processing

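Of the 19 called transporters, 14 kept their direction and call in all 13 refits (RLE, upper quartile and no further scaling, no filter, 1 CPM in 2 libraries, DESeq2, limma-voom, limma on TPM with pseudocounts of 1 and 0.1, and 4 refits without 1 library), except that SLC36A2 could not pass a filter of 1 CPM in 2 libraries. None of the 19 changed sign. The same count was not made over all called genes, so the 14 are a description only. They include SLC38A3 and SLC36A2, which passed the main filter through the overexpressing and the empty group only. The 5 others were SLC38A2, SLC7A5, SLC7A1, SLC38A6 and SLC38A9. On log2(TPM + 1) and log2(TPM + 0.1), 5 transporters were called higher, and over all genes 2493 and 2501 were higher. With a log2 fold minimum of 1, 4 transporters were higher and 3 lower, and over all genes 788 were higher and 1511 lower. Without 1 library, 7 to 8 transporters were higher and 10 to 13 lower, and over all genes 2973 to 3982 were higher and 2980 to 3876 lower. In such refits a group has 1 library, which is assumed to vary like the others. Among transporters that were not called, the log2 fold change of SLC38A5 turned to -0.3 and -0.6 on the TPM scales. Without 1 library it ran from -0.32 to 1.33 for SLC38A5, from -0.033 to 1.16 for SLC7A8 and from -0.18 to 0.016 for SLC38A7. The cause of these changes was not tested. The filter on low counts left 30 transporters untested. No paired analysis was possible because the titles number the libraries on through both groups, which share no replicate number.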
